A study of Homo sapiens with 5 samples.

Results

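Nuclear transfer RNA (tRNA) genes were scored for EZH2 and for trimethylated lysine 27 of histone H3 (H3K27me3) in HT1376 cells treated with an EZH2 inhibitor or with its vehicle. The members were the RefSeq gene records of type tRNA assigned in GRCh38 to the 22 autosomes and the X chromosome, each with 2 kb either side, and there were 443 of them. The positions of 429 records lie on the chromosome sequence and were scored, out of 58419 gene records of all types placed there. The other 14 records carry positions on other scaffolds and were left out of the counts. The 429 records have a median length of 73 bp, cover 22 isotypes and 49 anticodons, and fall into 3 described clusters, with 145 genes at 6p22-6p21, 70 on 1q and 15 on 1p, and 199 genes elsewhere.

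HT1376 is a cell line derived from a human bladder carcinoma. The cells were given 250 nM CPI-0209, an inhibitor of EZH2, or DMSO, the vehicle, and the treatment lasted 8 days by the treatment protocol, while the extraction protocol also names 4 days and an antibody to acetylated H3K27 and the labels of the single samples give no time. Chromatin immunoprecipitation followed by sequencing (ChIP-seq) with an antibody to EZH2 or to H3K27me3 gave 4 lists of called intervals, 1 library each for H3K27me3 in CPI-0209, H3K27me3 in DMSO, EZH2 in CPI-0209 and EZH2 in DMSO. A further input sample was not used here.

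RNA polymerase III (Pol III) transcribes tRNA genes from promoter elements inside the gene, the A box and the B box, which bind the factor TFIIIC. Each tRNA reads codons through its anticodon, and most human tRNA genes exist in several identical or near-identical copies, many of them in clusters. EZH2 is the methyltransferase of Polycomb repressive complex 2 (PRC2), which places the 3 methyl groups of H3K27me3, a mark of repressed chromatin that often spreads in broad domains.

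A gene is called in a list where an interval overlaps its window by at least 1 bp, and a domain is a set of overlapping intervals merged. The lists give positions only, so the depth of the libraries is unknown and the absence of an interval does not show that EZH2 or the mark was absent. Each group has 1 library, so no difference between the conditions could be checked against replicates or tested. Intervals in brackets are exact (Clopper-Pearson) 95% limits, which cover counting error only, and neighbouring genes that share a domain are not independent. In a population of cells, fewer marked cells and less signal per cell cannot be told apart. No list for an input or a control antibody was used, so the local background of the assay at tRNA genes was not measured. The lists held 18865 intervals covering 114 Mb for H3K27me3 in CPI-0209, 41342 covering 315 Mb for H3K27me3 in DMSO, 43522 covering 226 Mb for EZH2 in CPI-0209 and 24311 covering 193 Mb for EZH2 in DMSO.

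The sequences of 6 tRNA genes are shown because they are identical or nearly identical copies whose calls differed. The calls are for windows with 2 kb either side, whose flanks were not compared, so the sequences do not show how reads were placed. They were read 5′ to 3′ from RefSeq GRCh38.p14 promoter records of neighbouring genes, which contained 14 whole tRNA genes, and the genes shown were chosen after their values were seen. Capitals mark the anticodon and the core of the B box, searched on both strands as GTTCNANNC. That match was also used to read the strand, so all 14 hold it by construction, and 7.48% of all 35116 promoter records hold it too. The proline gene TRP-TGG3-2 lies at chr14:20684016-20684087 (+) and TRP-TGG3-5 at chr16:3188094-3188165 (+). The histidine genes are TRH-GTG1-3 at chr1:148281365-148281436 (+) and TRH-GTG1-9 at chr15:45201151-45201222 (+). The asparagine genes are TRN-GTT4-1 at chr1:16889677-16889750 (+) and TRN-GTT6-1 at chr1:143735920-143735993 (-).
TRP-TGG3-2: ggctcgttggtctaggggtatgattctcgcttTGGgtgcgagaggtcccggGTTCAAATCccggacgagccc
TRP-TGG3-5: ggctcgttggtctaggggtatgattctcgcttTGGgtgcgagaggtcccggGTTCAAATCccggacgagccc
TRH-GTG1-3: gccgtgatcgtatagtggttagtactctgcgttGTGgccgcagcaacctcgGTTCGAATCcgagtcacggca
TRH-GTG1-9: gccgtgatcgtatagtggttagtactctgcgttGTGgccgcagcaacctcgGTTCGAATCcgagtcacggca
TRN-GTT4-1: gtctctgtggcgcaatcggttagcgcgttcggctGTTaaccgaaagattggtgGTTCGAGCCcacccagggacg
TRN-GTT6-1: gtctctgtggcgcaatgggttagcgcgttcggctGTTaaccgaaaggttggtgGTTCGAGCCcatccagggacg

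The proline copies were identical over 72 of 72 bases. TRP-TGG3-5 was called in all 4 lists, whereas TRP-TGG3-2 was called for EZH2 in both conditions and for H3K27me3 in neither. The histidine copies were identical over 72 bases as well, and TRH-GTG1-9 had EZH2 in both conditions while TRH-GTG1-3 was in none of the 4 lists. The asparagine copies shared 71 of 74 bases. TRN-GTT4-1 was called in all 4 lists, and TRN-GTT6-1 had H3K27me3 in both conditions but EZH2 in CPI-0209 alone. Across 57 groups of 2 or more genes whose symbols name the same sequence, 222 genes in all, copies of 1 group differed in their call in 26 groups for H3K27me3 in CPI-0209 and 29 in DMSO, and in 25 groups for EZH2 in CPI-0209 and 24 in DMSO. The sources used here do not say how reads that match several copies were handled, and the part of such reads in these calls was not tested.

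Fewer tRNA genes were called for H3K27me3 in CPI-0209 than in DMSO, while the number called for EZH2 was close in both conditions. H3K27me3 was called at 100 of 429 genes (23.3%) in CPI-0209 and at 155 (36.1%) in DMSO. Of all windows of the same width along the genome, 5.49% were called in CPI-0209 and 12.8% in DMSO, and of all other gene records 16.8% were called in CPI-0209 and 27.7% in DMSO. The mark was called at 98 tRNA genes in both conditions, at 2 in CPI-0209 alone, at 57 in DMSO alone and at 272 in neither. Of genome windows, 5.44% were called in both conditions, 0.0461% in CPI-0209 alone and 7.35% in DMSO alone, and of other gene records 16.5% in both, 0.276% in CPI-0209 alone and 11.2% in DMSO alone. Of the 155 genes called in DMSO, 63.2% (55.1 to 70.8) were called in CPI-0209 too, beside 42.5% of genome windows and 59.6% of other gene records.

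EZH2 was called at 290 of 429 tRNA genes (67.6%) in CPI-0209 and at 283 (66.0%) in DMSO. Of genome windows of that width 10.6% were called for EZH2 in CPI-0209 and 8.62% in DMSO. Of other gene records, which are mostly longer, 43.8% were called in CPI-0209 and 34.4% in DMSO. Protein-coding records alone had a larger share than tRNA genes in CPI-0209, 75.5%, and a smaller one in DMSO, 59.1%. Among short non-coding genes of other types, 30.9% of 149 snRNA records were called in CPI-0209 and 28.9% in DMSO, and 34.4% of 1911 miRNA records in CPI-0209 and 25.5% in DMSO. EZH2 was at 263 tRNA genes in both conditions, at 27 in CPI-0209 alone, at 20 in DMSO alone and at 119 in neither. Of genome windows, 7.13% had EZH2 in both conditions, 3.52% in CPI-0209 alone and 1.49% in DMSO alone, and of other gene records 31.9% in both, 11.9% in CPI-0209 alone and 2.55% in DMSO alone.

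The order of the conditions depended on the length of the lists and the width of the intervals kept, which were changed together. When the longer list of each antibody was shortened to the covered length of the shorter by keeping its widest intervals, the direction turned, with H3K27me3 at 100 tRNA genes in CPI-0209 against 68 in DMSO and EZH2 at 193 in CPI-0209 against 283 in DMSO. The shortened H3K27me3 list of DMSO kept 2695 of 41342 intervals, beside 18865 in CPI-0209. The shortened EZH2 list of CPI-0209 kept 24334 of 43522. At equal covered length, wide intervals can touch fewer windows than narrow ones, so this setting cannot decide the direction.

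Within the tRNA windows, merged into 286 loci of 1390 kb, H3K27me3 intervals covered 231 kb in CPI-0209 and 453 kb in DMSO, a ratio of 0.509. Over the whole genome the ratio was 0.361. EZH2 intervals covered 721 kb of the loci in CPI-0209 and 709 kb in DMSO, a ratio of 1.02, against 1.17 over the genome. H3K27me3 covered less of the window in CPI-0209 at 117 genes, more at 6 and the same length at 34. For EZH2, coverage was lower in CPI-0209 at 95 genes, higher at 93 and equal at 122.

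The share of tRNA genes covered by an EZH2 interval peaked at the gene itself, and the share covered by H3K27me3 did not. At the gene centre EZH2 covered 62.5% of the 429 genes in CPI-0209 and 61.3% in DMSO, and at 20 kb towards lower coordinates it covered 30.3% in CPI-0209 and 31.9% in DMSO. H3K27me3 covered 16.1% of genes at the centre and 14% at that distance in CPI-0209, against 28.7% and 32.4% in DMSO. The peak was steeper at the 81 tRNA genes with no other tRNA gene within 50 kb. There, EZH2 covered 56.8% of genes at the centre in CPI-0209 and 53.1% in DMSO, beside 13.6% in CPI-0209 and 7.41% in DMSO at the same distance of 20 kb. Of these 81 genes, 33 lie over 10 kb from an end of a protein-coding record. At all 279 tRNA genes that far from such an end, the peak was lower. EZH2 covered 54.8% of them at the centre and 33.3% at that distance in CPI-0209, and 53.4% and 33.0% in DMSO. The part of neighbouring genes in the peak was not tested.

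**Figure D1:**
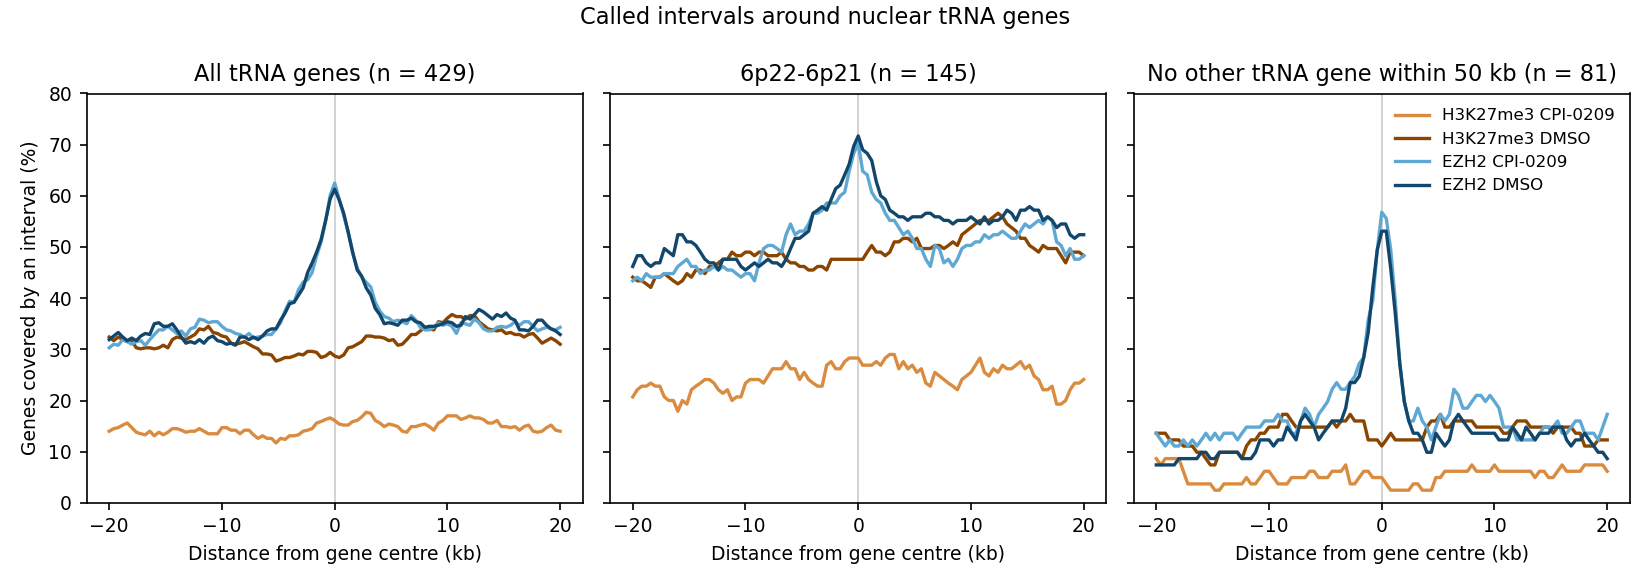
Percent of tRNA genes covered by a called interval (vertical axis) against the distance from the gene centre in kb, counted in coordinate order (horizontal axis), for all 429 genes, for the 145 at 6p22-6p21 and for the 81 with no other tRNA gene within 50 kb. Light lines are CPI-0209 and dark lines DMSO, orange for H3K27me3 and blue for EZH2; over all 429 genes, both EZH2 lines are highest at the gene (62.5% in CPI-0209 and 61.3% in DMSO) and the H3K27me3 lines are not.

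The lists together split the tRNA genes mainly into 3 classes. EZH2 in both conditions with H3K27me3 in neither was found at 130 genes (30.3%), among them TRR-TCT1-1, TRE-CTC1-1, TRG-TCC2-1 and TRH-GTG1-1, the first 4 in coordinate order. That combination was found at 1.67% of genome windows, 14.6% of other gene records and 30.3% of protein-coding records. All 4 lists called 95 tRNA genes (22.1%), beginning with TRN-GTT5-1, TRE-TTC4-1, TRG-CCC4-1 and TRG-CCC5-1 on 1p, beside 4.49% of windows, 14.5% of other gene records and 21.9% of protein-coding records. None of the lists called 112 tRNA genes (26.1%), beginning with TRK-CTT7-1, TRC-GCA7-1, TRN-GTT7-1 and TRG-CCC6-1, beside 82.9% of windows, 47.8% of other gene records and 18.7% of protein-coding records.

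At tRNA genes without H3K27me3 in either condition the EZH2 domains were narrower than at genes with it in both. Their widest EZH2 domain had a median width of 4.4 kb in CPI-0209 (n = 143) and 5.2 kb in DMSO (n = 147), beside 4.6 kb for all domains of the list in CPI-0209 and 6.6 kb for all in DMSO. Medians at genes count a shared domain once per gene, whereas those of the lists count each domain once. The tRNA record lay inside the domain at 95.8% of these genes in CPI-0209 and 95.9% in DMSO. At genes with H3K27me3 in both conditions it did at 92.9% in CPI-0209 and 90.5% in DMSO. For records inside a domain, the median distance to its centre was 0.809 kb in CPI-0209 (n = 137) and 0.797 kb in DMSO (n = 141). A narrow domain that touches the window is centred near the gene by construction. As a percentage of the distance from centre to edge, the median was 36.5% in CPI-0209 and 34.6% in DMSO. With H3K27me3 in both conditions it was 50.4% in CPI-0209 and 50.8% in DMSO. At genes with H3K27me3 in both conditions the widest EZH2 domain had a median of 29.9 kb in CPI-0209 and 33.2 kb in DMSO.

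All tRNA genes called for H3K27me3 in CPI-0209 also had EZH2 in CPI-0209, 100 of 100 (limits of 96.4 and 100%), beside 93.9% of genome windows and 97.1% of other gene records with the mark. In DMSO, 135 of 155 genes with H3K27me3 had EZH2, 87.1% (80.8 to 91.9), beside 46.1% of windows and 63.8% of other gene records. Of the 135 genes with both in DMSO, 70.4% (61.9 to 77.9) had H3K27me3 in CPI-0209 as well, beside 77.7% of such windows and 82.4% of such gene records. Of the 20 genes with H3K27me3 but no EZH2 in DMSO, 3 did, 15.0% (3.21 to 37.9), beside 12.5% of such windows and 19.3% of such gene records. Those 3 were TRN-GTT6-1, TRC-GCA12-1 and TRU-TCA2-1, and each had EZH2 in CPI-0209.

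Where the mark was called in both conditions, its domains were narrower in CPI-0209. At these 98 genes the widest H3K27me3 domain had a median width of 7.1 kb in CPI-0209 against 39.8 kb in DMSO and the domain was narrower in CPI-0209 at 96 genes and wider at 2. All domains of the lists, each counted once, had a median of 5.0 kb in CPI-0209 and 8.6 kb in DMSO. The medians and counts at genes are an unlike measure, since they count a shared domain once per gene. The windows of all 100 genes called in CPI-0209 touched 60 H3K27me3 domains, and those of all 155 called in DMSO touched 72. At the 57 genes called in DMSO alone the DMSO domain had a median of 12.8 kb. At the 263 genes with EZH2 in both conditions the EZH2 domain had a median of 9.0 kb in CPI-0209 and 10.2 kb in DMSO, narrower in CPI-0209 at 139 genes and wider at 114.

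Among the domains that touch a tRNA window, the 5 widest of each list were mostly on chromosome 6, except for H3K27me3 in DMSO. Over the whole lists the widest H3K27me3 domain measured 138 kb in CPI-0209 and 340 kb in DMSO. The widest EZH2 domain measured 397 kb in CPI-0209 and 358 kb in DMSO. The 5 widest at tRNA windows are given here by the first tRNA gene on each. For H3K27me3 in CPI-0209 they were at TRG-CCC5-1 (41.8 kb), TRF-GAA6-1 (30.4 kb), TRV-AAC3-1 (26.8 kb), TRT-CGT5-1 (25 kb) and TRK-TTT4-1 (19.0 kb). For H3K27me3 in DMSO they were at TRS-AGA4-1 (203 kb), TRK-TTT8-1 (130 kb), TRC-GCA2-3 (94.4 kb), TRP-AGG2-4 (87.2 kb) and TRP-AGG2-3 (82.4 kb), of which only the first is on chromosome 6. For EZH2 in CPI-0209 they were at TRS-AGA4-1 (154 kb), TRL-TAA2-1 (59.4 kb), TRA-TGC2-1 (49.2 kb), TRK-TTT7-1 (48.6 kb) and TRG-CCC5-1 (45.2 kb). For EZH2 in DMSO they were at TRS-AGA4-1 (154 kb), TRA-AGC7-1 (111 kb), TRL-CAA1-2 (87.8 kb), TRA-AGC4-1 (60.2 kb) and TRR-TCT1-1 (54.8 kb).

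**Figure D2:**
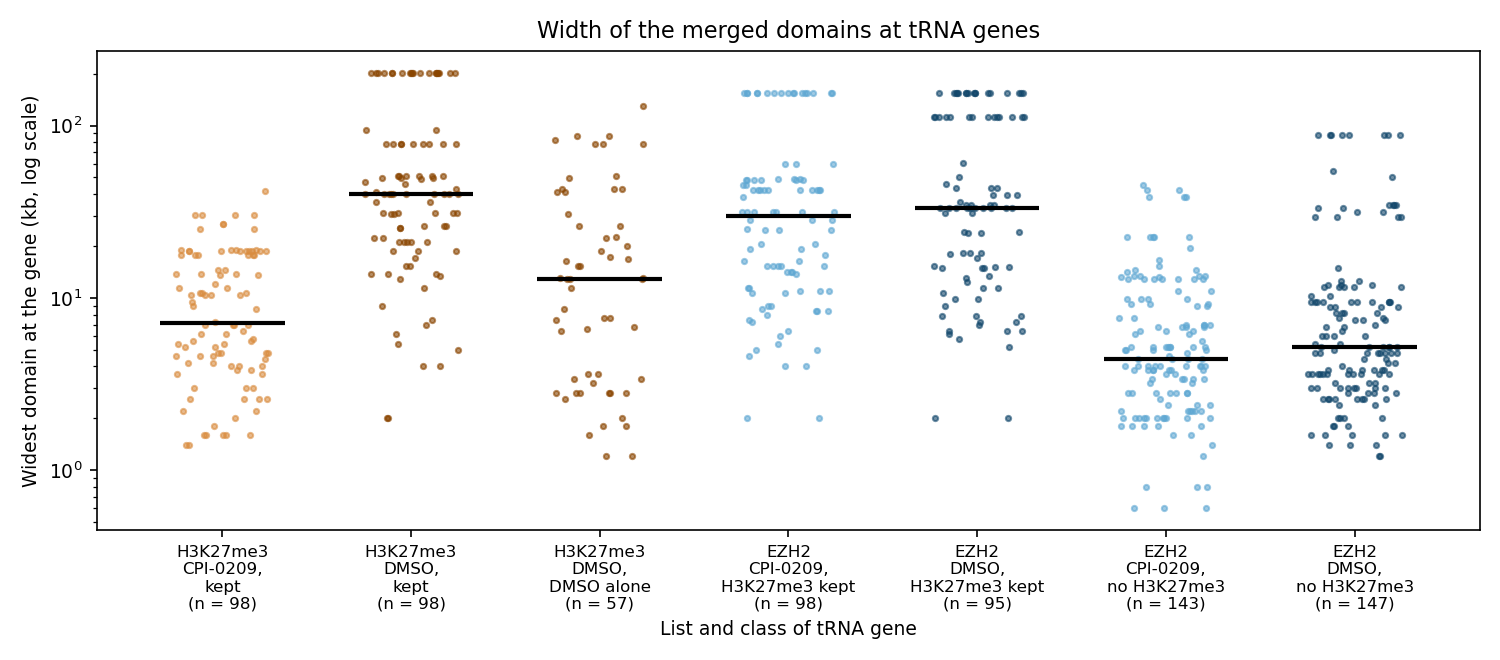
Width in kb, on a log scale, of the widest merged domain at each tRNA gene, by list and class; each point is 1 gene, genes on the same domain share its width, and black lines are medians. In the genes with H3K27me3 in both conditions the median was 7.1 kb in CPI-0209 and 39.8 kb in DMSO for H3K27me3, and 29.9 kb in CPI-0209 and 33.2 kb in DMSO for EZH2.

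The rarer classes were small. H3K27me3 in CPI-0209 alone was found at TRG-TCC4-1 on 1q and at TRQ-CTG1-5 on chromosome 17, which lies 769 bp from an end of the HES7 record. H3K27me3 in DMSO alone with EZH2 in neither was found at 7 genes, TRG-CCC1-2, TRN-GTT2-8, TRN-GTT9-2, TRS-AGA3-1, TRP-AGG2-3, TRC-GCA9-4 and TRK-TTT1-1. The widest DMSO domain among them was 82.4 kb, at TRP-AGG2-3. Both H3K27me3 and EZH2 were called in DMSO alone at TRG-CCC1-1, TRK-TTT8-1 and TRA-AGC7-1, with H3K27me3 domains of 3.6 kb, 130 kb and 78.0 kb. At TRK-TTT8-1 the EZH2 domain overlapped 15 bp of the window and did not reach the gene record. H3K27me3 in DMSO alone stood beside EZH2 in CPI-0209 alone at 10 genes, TRQ-CTG3-1, TRN-GTT2-2, TRD-GTC2-3, TRL-CAG1-3, TRG-GCC1-3, TRE-CTC1-4, TRV-CAC1-2, TRL-AAG1-1, TRI-AAT1-1 and TRNAI-AAU. EZH2 in CPI-0209 alone without H3K27me3 was found at 13 genes, beginning with TRV-CAC1-7, TRT-TGT2-1, TRE-TTC1-1 and TRI-TAT2-2. EZH2 in DMSO alone without H3K27me3 was found at 17, beginning with the neighbours TRQ-TTG3-1, TRQ-TTG3-2, TRS-TGA3-1 and TRX-CAT1-3 on 6p. The remaining 37 genes, from TRN-GTT9-1, TRH-GTG1-4, TRV-CAC1-1 and TRG-GCC1-1 onward, had H3K27me3 in DMSO alone and EZH2 in both conditions.

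The cluster at 6p22-6p21 held 53 of the 100 tRNA genes with H3K27me3 in CPI-0209 and 75 of the 155 in DMSO. H3K27me3 was called at 53 of its 145 genes (36.6%, 28.7 to 44.9) in CPI-0209 and at 75 (51.7%, 43.3 to 60.1) in DMSO, and 70.7% (59.0 to 80.6) of the genes called in DMSO were called in CPI-0209 too. EZH2 was called at 108 (74.5%) in CPI-0209 and at 112 (77.2%) in DMSO. Of 182 windows of the same width laid between the tRNA genes of the cluster's runs, 97 (53.3%) were called for EZH2 in CPI-0209 and 91 in DMSO. For H3K27me3, 23.1% of those windows were called in CPI-0209 and 52.7% in DMSO. Elsewhere in the genome, outside the clusters on 6p, 1q and 1p, 30 of 199 tRNA genes (15.1%, 10.4 to 20.8) had H3K27me3 in CPI-0209 and 48 (24.1%, 18.4 to 30.7) in DMSO, and 135 (67.8%) had EZH2 in CPI-0209 and 132 (66.3%) in DMSO. On the gene records alone, 17 of those 199 had H3K27me3 in CPI-0209 and 32 in DMSO.

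**Figure D3:**
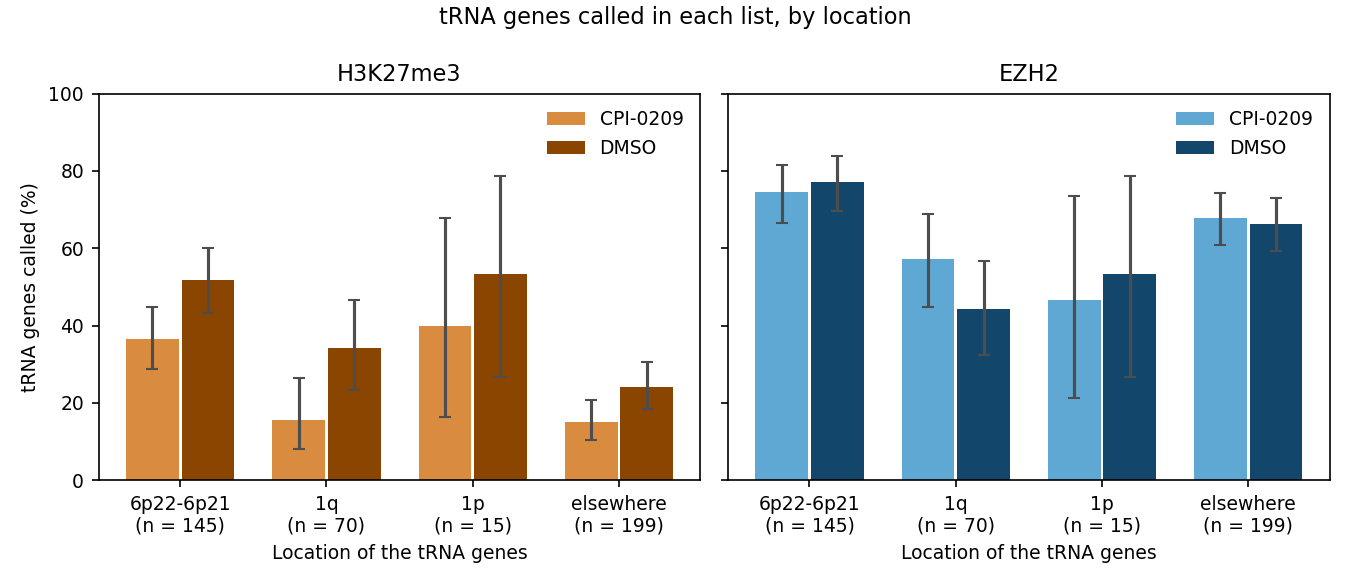
Percent of tRNA genes called for H3K27me3 (left) and EZH2 (right) by location, with CPI-0209 as the light and DMSO as the dark bar; error bars are exact 95% binomial limits and cover counting error only. H3K27me3 bars are lower in CPI-0209 at all 4 locations (36.6% in CPI-0209 and 51.7% in DMSO at 6p22-6p21). For H3K27me3 and for EZH2 alike, the limits of the 2 bars overlap at each location. The same genes are scored in both conditions, so overlap of these limits does not compare the conditions.

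Genes less than 100 kb apart were joined into runs, and 5 runs of the 6p cluster hold at least 4 genes. Of these 5, the 2 nearest to the telomere had H3K27me3 at few genes. In the run at chr6:26286526-26331515, which begins with TRX-CAT1-2, TRR-TCG4-1, TRS-GCT6-1 and TRQ-TTG3-1, H3K27me3 was called at 0 of 13 genes in CPI-0209 and 0 in DMSO, and EZH2 at 4 in CPI-0209 and 9 in DMSO. In the run at chr6:26521208-26828299, which begins with TRL-CAG1-7, TRT-AGT2-1, TRR-ACG1-2 and TRV-CAC1-6, H3K27me3 was at 0 of 31 genes in CPI-0209 and 2 in DMSO, and EZH2 at 13 in CPI-0209 and 14 in DMSO.

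The other runs had a larger share of genes with H3K27me3 in each condition. The run at chr6:27020346-27335062, from TRI-TAT2-2, TRP-CGG2-1, TRS-GCT1-1 and TRH-GTG1-5 onward, had H3K27me3 at 10 of 21 genes in CPI-0209 and 14 in DMSO, and EZH2 at 15 in CPI-0209 and 14 in DMSO. The run at chr6:28474552-28989083, which begins with TRT-TGT1-1, TRL-AAG4-1, TRT-CGT1-1 and TRI-TAT3-1, had H3K27me3 at 20 of 43 genes in CPI-0209 and 32 in DMSO. EZH2 was at 42 of its 43 genes in CPI-0209 and at 41 in DMSO.

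The run at chr6:27478812-27795932 held the widest domain at any tRNA gene in 3 of the 4 lists, all but H3K27me3 in CPI-0209. H3K27me3 was called at 23 of its 33 genes in CPI-0209 and at 26 in DMSO, and EZH2 at 31 in each condition. In DMSO, 1 H3K27me3 domain of 203 kb, at chr6:27550801-27753800, touched the windows of 20 tRNA genes. In CPI-0209 the mark lay in 14 pieces over the run, the widest of 26.8 kb, against 4 pieces in DMSO. Of the length covered in DMSO, 61.7% was covered in CPI-0209, beside 50.4% over all tRNA loci and 35.8% over the genome. EZH2 formed a domain of 154 kb over 17 genes in both conditions, at chr6:27554601-27708800 in CPI-0209 and at chr6:27553001-27706600 in DMSO. The 17 genes begin with TRS-AGA4-1, TRR-TCT5-1, TRK-TTT9-1 and TRD-GTC3-1.

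**Figure D4:**
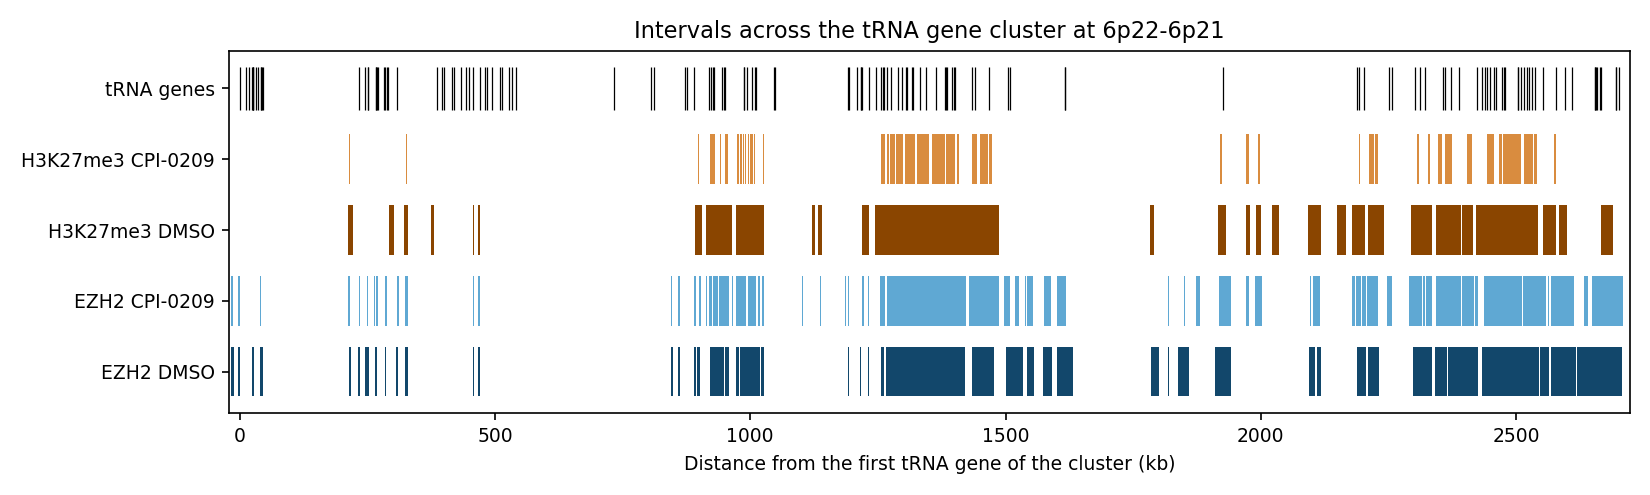
Map of 144 tRNA genes of the 6p cluster (black ticks) over 2703 kb, as distance in kb from the first of them, with the called intervals of each list drawn to scale below. H3K27me3 lies in shorter pieces in CPI-0209 than in DMSO, with 47 domains in CPI-0209 and 35 in DMSO; EZH2 has 75 domains in CPI-0209 and 52 in DMSO, with a 154 kb domain in both.

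On 1q, H3K27me3 was called at 11 of 70 genes (15.7%, 8.11 to 26.4) in CPI-0209 and at 24 (34.3%, 23.3 to 46.6) in DMSO. EZH2 was called at 40 (57.1%, 44.7 to 68.9) in CPI-0209 and at 31 (44.3%, 32.4 to 56.7) in DMSO. On the gene records alone, without flanks, H3K27me3 was at 6 genes in CPI-0209 and 14 in DMSO, and EZH2 at 31 in CPI-0209 and 25 in DMSO. Of the 24 genes with H3K27me3 in DMSO, 10 had it in CPI-0209, 41.7% (22.1 to 63.4). Of windows between the tRNA genes of its runs, 18.4% had H3K27me3 in CPI-0209 and 36.8% in DMSO, and 31.6% had EZH2 in CPI-0209 and 32.9% in DMSO (n = 76). The widest H3K27me3 domain at the called 1q genes had a median of 1.8 kb in CPI-0209 and 5.6 kb in DMSO.

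The main run of 1q, at chr1:161399700-161612029 with 32 genes, begins with TRV-CAC1-1, TRE-TTC4-2, TRN-GTT2-2 and TRG-TCC4-1. It had H3K27me3 at 7 genes in CPI-0209 and 14 in DMSO, and EZH2 at 19 in CPI-0209 and 13 in DMSO. It holds an array of repeated tRNA genes from TRG-TCC4-1 to TRL-CAG1-5, 23 genes in 31 kb, which was singled out after its values were seen. In the array H3K27me3 was called at 5 genes in CPI-0209 and 9 in DMSO, EZH2 at 10 in CPI-0209 and 5 in DMSO, and 13 of the 23 genes were in none of the 4 lists. On the array's gene records themselves, without the 2 kb either side, H3K27me3 was called at 1 in CPI-0209 and 2 in DMSO, and EZH2 at 4 in CPI-0209 and 1 in DMSO.

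On 1p, H3K27me3 was called at 6 of 15 genes in CPI-0209 and at 8 in DMSO, and EZH2 at 7 in CPI-0209 and 8 in DMSO. The H3K27me3 genes in both conditions were TRN-GTT5-1, TRE-TTC4-1, TRG-CCC4-1, TRG-CCC5-1, TRE-TTC3-1 and TRN-GTT4-1. At TRG-CCC5-1 the H3K27me3 domain measured 41.8 kb in CPI-0209 and 45.8 kb in DMSO, which made it the widest H3K27me3 domain at any tRNA gene in CPI-0209. At TRN-GTT5-1 it measured 1.6 kb in CPI-0209 and 12.8 kb in DMSO.

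Among runs on other chromosomes, the 14 genes on chromosome 16 at chr16:3150674-3192060, beginning with TRR-CCG1-3, TRR-CCT3-1, TRK-CTT3-1 and TRP-TGG3-3, had H3K27me3 at 10 in each condition and EZH2 at all 14 in each. There, 87.1% of the H3K27me3 length in DMSO was covered in CPI-0209, beside 50.4% over all tRNA loci and 35.8% over the genome. On chromosome 14, the 14 genes at chr14:20609336-20684087, beginning with TRP-AGG2-5, TRL-AAG2-3, TRP-AGG2-6 and TRT-TGT3-1, had H3K27me3 at 2 in CPI-0209 and 7 in DMSO, and EZH2 at 12 in CPI-0209 and 14 in DMSO. The retained H3K27me3 length in that run was 11%. On chromosome 5, the 17 genes at chr5:181097070-181222467, beginning with TRV-CAC1-2, TRL-AAG1-1, TRL-AAG1-2 and TRV-CAC1-3, had H3K27me3 at 6 in CPI-0209 and 8 in DMSO, and EZH2 at 17 in CPI-0209 and 15 in DMSO. On chromosome 17, the 18 genes at chr17:8119155-8227064, beginning with TRK-TTT3-5, TRQ-CTG1-5, TRL-TAG1-1 and TRR-TCT2-1, had H3K27me3 at 4 in CPI-0209 and 3 in DMSO, and EZH2 at 15 in CPI-0209 and 18 in DMSO. On chromosome 7, the 13 genes at chr7:149546540-149707740, which begin with the cysteine genes TRC-GCA16-1, TRC-GCA22-1, TRC-GCA15-1 and TRC-GCA3-1, had H3K27me3 at 2 in CPI-0209 and 4 in DMSO and EZH2 at 3 in CPI-0209 and 2 in DMSO. Smaller runs on chromosomes 7, 11 and 12 had no H3K27me3 call. The 6 genes at chr7:149310190-149415209 had no EZH2 call either. EZH2 was called at 3 of 8 genes in CPI-0209 and 4 in DMSO at chr11:59550629-59566452. At chr12:124921755-124940037 it was called at 3 of 5 in CPI-0209 and 5 in DMSO.

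The calls differed with the distance to protein-coding genes. At the 74 tRNA genes within 2 kb of an end of a protein-coding record, EZH2 was called at 66 (89.2%) in CPI-0209 and 64 (86.5%) in DMSO, and H3K27me3 at 8 (10.8%) in CPI-0209 and 7 (9.46%) in DMSO. Of the 279 tRNA genes over 10 kb from any such end, 172 (61.6%) had EZH2 in CPI-0209 and 165 (59.1%) in DMSO, and 83 (29.7%) had H3K27me3 in CPI-0209 and 133 (47.7%) in DMSO. Windows within 2 kb reach the neighbouring gene's end, and the part of that gene in the call was not tested. At the 333 genes whose window touches no protein-coding record, EZH2 was called at 213 (64.0%) in CPI-0209 and 208 (62.5%) in DMSO.

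Each of the 22 isotypes had at least 1 gene with EZH2 in CPI-0209, and the isotypes differed in how often it was called. Over all tRNA genes the share with EZH2 was 67.6% in CPI-0209 and 66.0% in DMSO. Phenylalanine genes had EZH2 at 10 of 11 in CPI-0209 and at 11 in DMSO. H3K27me3 was at 5 phenylalanine genes in each condition, TRF-GAA6-1, TRF-GAA5-1, TRF-GAA1-1, TRF-GAA3-1 and TRF-GAA4-1, all in the 6p cluster. These neighbours share domains. In DMSO, 1 EZH2 domain of 111 kb touched the windows of all 5. In CPI-0209, 1 H3K27me3 domain of 30.4 kb touched those of TRF-GAA6-1, TRF-GAA5-1 and TRF-GAA1-1. The other 6, TRF-GAA1-2 on 6p and TRF-GAA1-3, TRF-GAA2-1, TRF-GAA1-4, TRF-GAA1-5 and TRF-GAA1-6 on other chromosomes, had no H3K27me3 call. Cysteine genes stood at the low end, with EZH2 at 7 of 29 in CPI-0209 and 4 in DMSO, and H3K27me3 at 4 in CPI-0209 and 6 in DMSO. On the cysteine gene records alone, H3K27me3 was called at 0 in CPI-0209 and 4 in DMSO. Runs that begin with cysteine genes lie on chromosome 7, where EZH2 was called at 5 of 22 tRNA genes in CPI-0209 and 4 in DMSO. The parts of isotype and location in these calls were not tested. Proline genes had EZH2 at 17 of 20 in CPI-0209 and 18 in DMSO, and threonine genes at 17 of 20 in CPI-0209 and 18 in DMSO.

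Alanine and serine genes with an H3K27me3 call were all in the 6p cluster. Alanine genes had H3K27me3 at 10 of 27 in CPI-0209 and 15 in DMSO within the 6p cluster, and at 0 of 10 in either condition outside it. Serine genes had it at 6 of 17 in CPI-0209 and 10 in DMSO within the cluster, and at 0 of 9 in either condition outside. The valine genes with anticodon AAC had EZH2 at 10 of 10 and H3K27me3 at 7 of 10 in each condition. Their H3K27me3 genes were TRV-AAC1-2 and TRV-AAC1-3 on chromosome 5 and TRV-AAC5-1, TRV-AAC3-1, TRV-AAC4-1, TRV-AAC1-5 and TRV-AAC6-1 on 6p. The others, TRV-AAC1-1, TRV-AAC2-1 and TRV-AAC1-4, had EZH2 alone. In DMSO, the windows of TRV-AAC3-1, TRV-AAC4-1 and TRV-AAC1-5 were touched by the same H3K27me3 domain of 203 kb. The 3 isoleucine genes with anticodon GAU were in none of the lists.

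The initiator methionine tRNA starts protein synthesis, and its 8 genes, TRX-CAT1-1 to TRX-CAT1-8, had EZH2 at 6 in CPI-0209 and at 7 in DMSO. TRX-CAT1-3 had EZH2 in DMSO alone and TRX-CAT1-5 had none. H3K27me3 was called at TRX-CAT1-6, where the domain measured 19.0 kb in CPI-0209 and 203 kb in DMSO. The 11 elongator methionine genes had EZH2 at 6 in each condition. TRM-CAT2-1 had H3K27me3 in both conditions, TRM-CAT4-2 and TRM-CAT3-2 had it in DMSO alone, and all 3 had EZH2 in both. TRM-CAT3-1, TRM-CAT1-1 and TRM-CAT6-1 had EZH2 in both without the mark, and TRM-CAT5-1, TRM-CAT4-1, TRM-CAT4-3, TRM-CAT5-2 and TRM-CAT7-1 were in no list.

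Of the 2 selenocysteine genes, whose tRNA inserts selenocysteine at UGA codons, TRU-TCA1-1 was in no list. TRU-TCA2-1 on chromosome 22 had an H3K27me3 domain of 2.0 kb in CPI-0209 and 15.2 kb in DMSO, and an EZH2 domain of 9.0 kb in CPI-0209 alone. Tryptophan genes had EZH2 at 5 of 7 in CPI-0209, TRW-CCA5-1, TRW-CCA4-1, TRW-CCA3-3, TRW-CCA1-1 and TRW-CCA2-1, and at 6 in DMSO, which added TRW-CCA3-2. TRW-CCA2-1 had H3K27me3 in DMSO alone and TRW-CCA3-1 was in no list. Of the 9 histidine genes, TRH-GTG1-1, TRH-GTG1-2, TRH-GTG1-4, TRH-GTG1-7, TRH-GTG1-8 and TRH-GTG1-9 had EZH2 in both conditions, and TRH-GTG1-3, TRH-GTG1-5 and TRH-GTG1-6 had none. H3K27me3 was at TRH-GTG1-2 in both conditions and at TRH-GTG1-4 in DMSO alone.

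**Figure D5:**
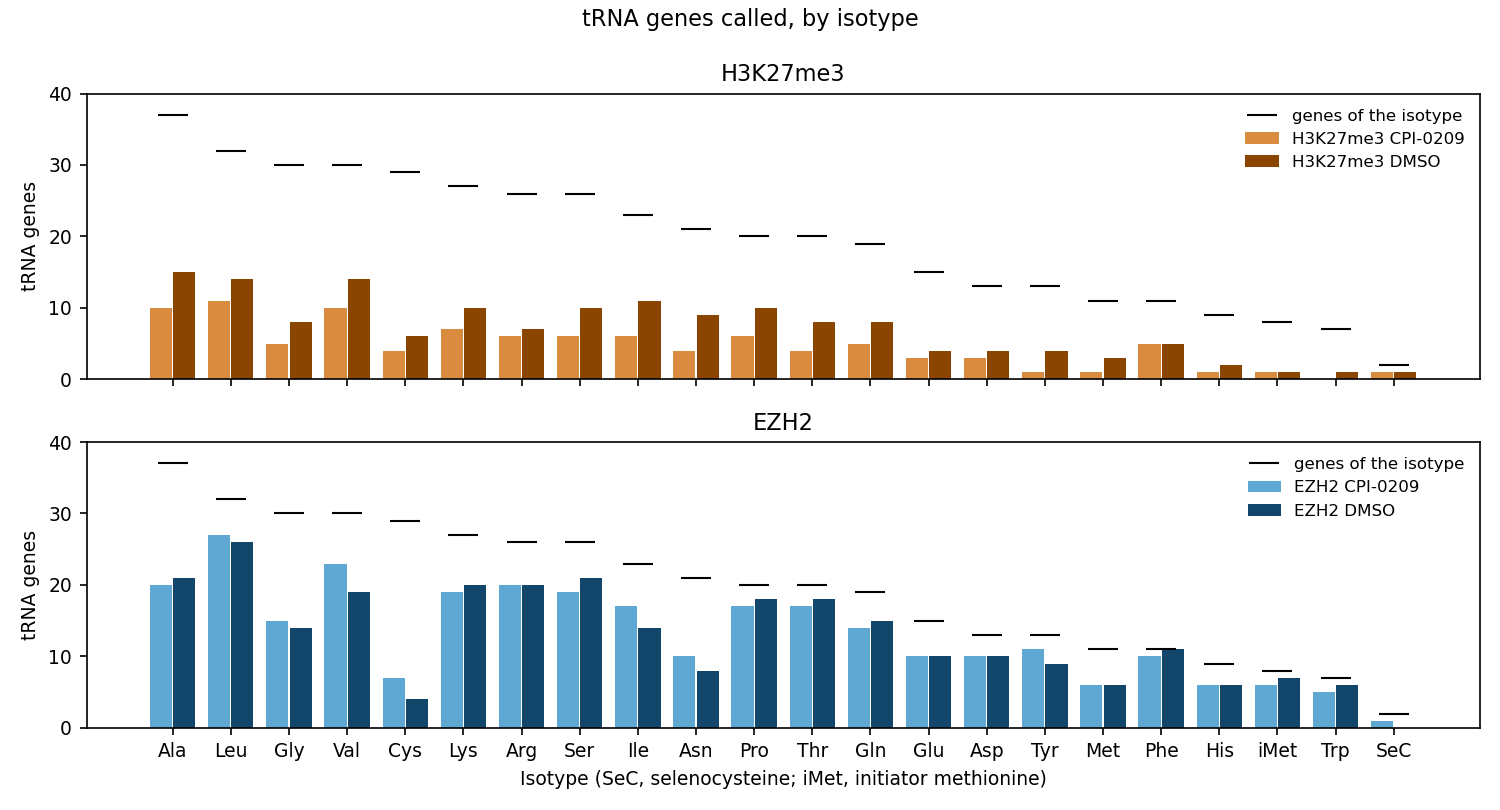
Number of tRNA genes called for H3K27me3 (top) and EZH2 (bottom) by isotype, ordered by the number of genes, which the black marks give; the light bar is CPI-0209 and the dark bar DMSO. EZH2 bars come near the black marks for some isotypes, such as phenylalanine with 10 of 11 in CPI-0209 and 11 in DMSO, and are far below them for cysteine, with 7 of 29 in CPI-0209 and 4 in DMSO.

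Other genes that Pol III transcribes were scored with the same window. Of 38 such genes, 2 had H3K27me3 in CPI-0209 and 4 in DMSO, and 17 had EZH2 in CPI-0209 and 19 in DMSO. Of all gene records other than tRNA genes, 16.8% had H3K27me3 in CPI-0209 and 27.7% in DMSO. EZH2 was called at 43.8% of those records in CPI-0209 and 34.4% in DMSO. The 5S ribosomal RNA genes made up 17 of the 38, and only RNA5S17, at the end of their array, was called, in all 4 lists. Among the other 21, EZH2 was called at 16 in CPI-0209 and 18 in DMSO. They include RN7SK, which regulates transcription elongation, RMRP and RPPH1, the RNA parts of RNase MRP and RNase P, and the U6 genes RNU6-1 and RNU6-2, each with EZH2 in both conditions and no H3K27me3. H3K27me3 was called at the vault RNA gene VTRNA2-1 in both conditions, and at the Y RNA gene RNY3 and at BCYRN1, the BC200 RNA gene, in DMSO alone. EZH2 was not called at BCYRN1, RNY4 or SNAR-A1 in either condition.

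The protein-coding genes of the Pol III machinery and of its factors carried EZH2 in most cases. Of 30 such genes, EZH2 was called at 29 in CPI-0209 and 23 in DMSO, beside 75.5% of protein-coding records in CPI-0209 and 59.1% in DMSO. Those called in CPI-0209 alone included POLR3A, which encodes the largest Pol III subunit, and GTF3C6, which encodes a TFIIIC subunit. H3K27me3 was called at 2 of the 30 in CPI-0209 and at 4 in DMSO, beside 24.6% of protein-coding records in CPI-0209 and 34.3% in DMSO. POLR3GL, which encodes a Pol III subunit, had it in both conditions. BRF2, which encodes a TFIIIB subunit, had it in CPI-0209 alone, and BDP1, another TFIIIB subunit gene, and SNAPC2 and SNAPC4, which encode subunits of a factor for small nuclear RNA genes, had it in DMSO alone.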

How the data were processed

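Positions of called intervals were deposited by the authors, with no score, count or p-value (per the file headers the lists hold chromosome, start and end, recorded here as other units). The submitters' processing notes name BWA, SICER and hg38, with no version or settings. Every start and width is a multiple of 200 bp. Starts count from 0 in the lists and are printed counting from 1. Intervals within a list overlap in part, and the sources used here do not say what each list combines.

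Gene records came from RefSeq (GRCh38.p14, the same assembly as hg38). Its tRNA records with positions on other scaffolds (14) were left out. Overlaps were counted in Python 3.11.15 with numpy 2.4.6 and pandas 2.3.3, exact 95% limits with scipy 1.17.1, after the counting was tested on simulated data. Background windows have 4073 bp, the width of a median tRNA gene with its flanks.

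The members and lists were chosen with earlier results of these data known. Genes were named by a rule: the first 4 in coordinate order of a class or run, all members of classes or isotypes of 12 or fewer genes, the genes under the 5 widest domains of a list that touch a tRNA window, and Pol III genes called for H3K27me3. Other names, among them the genes whose sequences are shown, the ends of the 1q array, Pol III genes without H3K27me3 and valine genes, were chosen after their values were seen.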

Additional observations from a re-analysis of the deposited data

How the results depend on the processing

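The 8 counts over all tRNA genes under a gene record with no flank, a 5 kb flank, at least 50% of the window covered, without genes whose window touches a protein-coding record, and with the 14 records on other scaffolds (an alternative chosen after seeing the data) stayed within 1.5 times of those reported; with no flank, H3K27me3 fell further on 1q, to 6 genes in CPI-0209 and 14 in DMSO, in the 1q array and at cysteine genes. With the longer list shortened to the covered length of the shorter, EZH2 was called at 193 genes in CPI-0209 and at 7 in CPI-0209 alone, and H3K27me3 at 68 genes in DMSO, 57 in both conditions and 11 in DMSO alone. Counted as 286 merged loci, EZH2 was called at 187 (65.4%) in CPI-0209, 179 (62.6%) in DMSO and 169 in both, since there are fewer loci than genes. With stretches under 2 intervals only, EZH2 was called at 216 genes in CPI-0209 and 158 in DMSO, 144 in both conditions and 72 in CPI-0209 alone, and H3K27me3 at 24 in CPI-0209 and 125 in DMSO, 24 in both and 101 in DMSO alone; the cause was not tested. No paired analysis was possible because each group has 1 library and the result comes from no test, and no library could be left out. Read depth is unknown.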
